A study of Mus musculus with 7 samples.

Results

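The respiratory chain genes described here are those encoded in the nucleus. They were selected by gene symbol from the count table of mouse gastrocnemius, taking the subunit series Nduf, Sdh, Uqcr with Cyc1, Cox and Atp5 and leaving out 6 symbols that hold "-ps". The rule found 85 of 49568 symbols: 37 for complex I, 4 for complex II, 9 for complex III, 18 for complex IV and 17 for complex V. Total RNA of the gastrocnemius, a hindlimb muscle of mostly fast fibers, was sequenced from C57Bl6/J mice of 3 ages, with 2 libraries from mice 4 weeks old, 2 from mice 6 weeks old and 3 from mice 8 weeks old, and the labels give no treatment or allele. The titles of the 8-week libraries carry the mark "Ctl", which the other ages lack, and which in the study stands for littermates without the CreER allele from crosses of Pax7-CreERT2 mice with Rosa26 nTnG or DTA mice. In the study, the comparison of Ctl with DTA mice used tamoxifen, injected from 4 weeks, and muscles taken at 8 weeks. The labels do not say whether these 3 mice were such littermates or whether they received tamoxifen. A difference of line or of tamoxifen cannot be told apart from age at 8 weeks. The study asked how the muscle transcriptome changes between the weeks after weaning and young adulthood. Comparisons were made between libraries of one muscle each, and p-values measure the spread between these libraries.

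The respiratory chain sits in the inner mitochondrial membrane. Complexes I and II pass electrons from NADH and succinate to coenzyme Q, complex III passes them on to cytochrome c and complex IV to oxygen, while complexes I, III and IV pump protons. Complex V, the ATP synthase, uses the returning protons to make ATP. Most subunits are encoded in the nucleus and imported, a small set is encoded by mitochondrial DNA, and slow and oxidative muscle fibers hold more mitochondria than fast glycolytic fibers do.

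A library held 30836057 to 41784144 counts, of which the members took 0.723% to 1.12% and 25.1% to 37.4% were of mt-Rnr2, a ribosomal RNA of the mitochondrion. Levels are given as CPM, counts relative to a library size scaled by TMM factors, which set the bulk of genes equal between libraries. The tissue matched its label, since the 8 muscle fiber markers, myosins and actin among them, summed to 53937 to 76814 CPM, while the 4 adipocyte markers tested summed to 10.3 to 41.4 CPM and the 4 endothelial markers to 127.5 to 205.5 CPM. The 3 libraries at 8 weeks differed among themselves, with TMM factors of 0.888, 1.05 and 0.854, and replicate 2 at 8 weeks lay nearer to the younger muscles in the members, as given below.

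Of the 85 members, 82 had enough counts to be tested among 14955 genes. The 3 that did not were Cox6b2, a complex IV subunit known from testis, with 0 to 5 counts per library, and Cox7b2 and Cox8c, which had 0 counts in every library. Levels of different genes were compared as CPM per kb of the main transcript, as means of the 7 libraries. On this scale the catalytic core of complex V was highest, with 570.2 CPM per kb for Atp5b, its beta subunit, and 451.6 for Atp5a1, its alpha subunit. The highest member of complex IV was Cox8b, the muscle form of subunit VIII, at 412.5 CPM per kb. In complex III it was Uqcrh, the hinge protein, at 233.8 CPM per kb, and in complex II Sdhb, the iron-sulfur subunit, at 134.6. Ndufa4, carried here under complex I by its symbol but now counted with complex IV, reached 337.7 CPM per kb. The median member stood at 71.7 CPM per kb in complex I, 98.3 in complex II, 138 in complex III, 138 in complex IV and 146 in complex V. At the low end were Cox4i2, the lung form of subunit IV, at 0.839 CPM per kb and Ndufa4l2, a hypoxia-induced relative of Ndufa4, at 1.78.

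**Figure D1:**
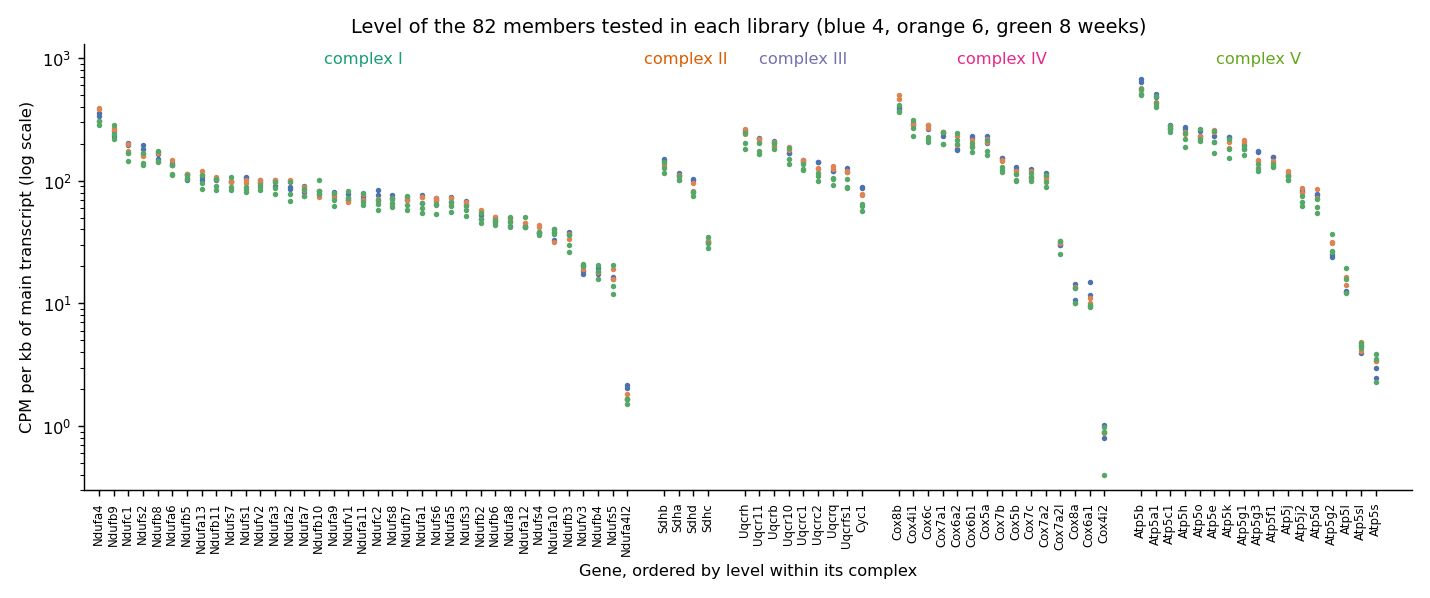
Level of each of the 82 members tested, in CPM per kb of main transcript on a log axis, with 1 point per library (blue 4 weeks, orange 6 weeks, green 8 weeks) and genes ordered by mean level within each complex. Atp5b is highest at a mean of 570.2 and Cox4i2 lowest at 0.839, and for most genes the 7 points lie close together.

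The members varied little between libraries. The median coefficient of variation over the 7 libraries was 9.69% for the members (range 4.39% to 24.7%), beside 14.7% for the 12720 genes tested in the same range of mean CPM. That range is wide, from 0.61 CPM for Cox4i2 to 1116 CPM for Atp5a1. Within it the genes were not matched to the members for level, so the part of level in this difference was not tested. Summed over the 82 members, the level was 10404 and 10454 CPM at 4 weeks, 9821 and 10091 CPM at 6 weeks, and 8998, 9954 and 8478 CPM at 8 weeks. Replicate 2 at 8 weeks fell within the range of the 6-week libraries, and the other 8-week libraries were below all younger ones.

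Between 6 and 4 weeks, 0 of the 82 members passed an adjusted p of 0.05 in edgeR's quasi-likelihood test, against 6.96% of all genes tested (3.17% higher and 3.79% lower). At an unadjusted p under 0.05 there were 4 members, 2 higher (Cox8b and Atp5g2) and 2 lower (Cox6a1 and Atp5g3), whereas 23.6% of all genes had such a p. DESeq2 and limma-voom also called 0 members. The median log2 fold change was −0.01 for the members and −0.01 for all genes, and 44 of the 82 members had a negative value. The direction in single libraries was as mixed, since 21 members (25.6%) lay higher in both 6-week libraries than in both 4-week libraries and 22 (26.8%) lay lower, beside 28.5% and 29.8% of all genes.

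At 8 weeks, 10 members were lower and 0 were higher than at 4 weeks. The lower members were 12.2% of the 82, beside 8.94% of all genes tested that were lower, 9.52% that were higher and 18.5% in either direction. At an adjusted p of 0.05 the share of members called lower was thus not far from that of all genes. At an unadjusted p under 0.05 there were 27 members, 26 lower and 1 higher. Of all 14955 genes, 33.1% had such a p, 2456 of them lower and 2491 higher. The members at this looser threshold were thus mostly lower, while all genes were split about evenly. The median log2 fold change of the members was −0.15, against −0.01 for all genes, and 71 of the 82 members (86.6%) had a negative value, against 50.8% of all genes. In 34 members (41.5%) all 8-week libraries lay below both 4-week libraries, as for 25.1% of all genes, and in 3 members (3.66%) all lay above, as for 23.9% of all genes. In a bulk tissue, fewer cells of a type and less RNA per cell cannot be told apart.

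**Figure D2:**
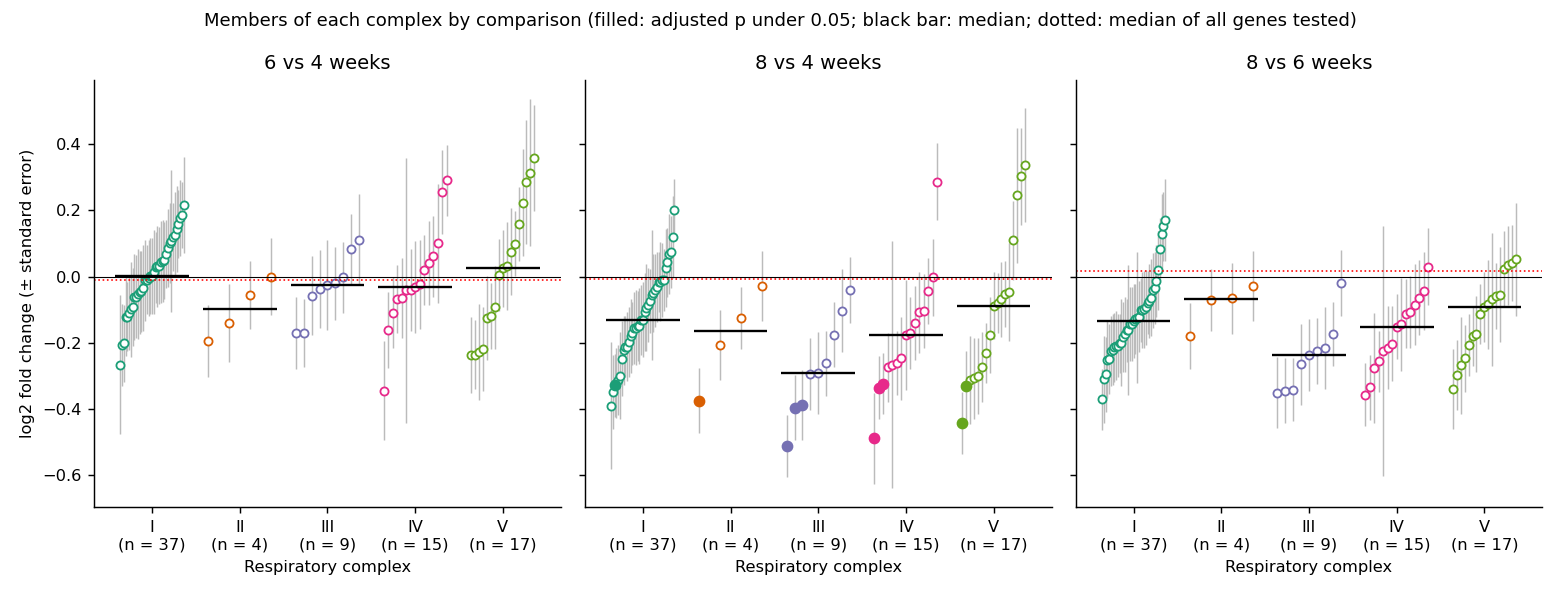
log2 fold change of the members of each complex with its standard error in the 3 comparisons of ages, with filled points for an adjusted p under 0.05, a black bar for the median of the complex and a dotted line for the median of all 14955 genes. At 6 against 4 weeks the points lie around 0 and none is filled, at 8 against 4 weeks 10 are filled and all of these are below 0, and at 8 against 6 weeks most lie below 0 with none filled.

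Complex III, the cytochrome bc1 complex, held 3 of the 10 called members among its 9 (8.94% of all genes were lower), with a median log2 fold change of −0.29. All 9 of its members had a negative value at 8 against 4 weeks, and in 7 of them the libraries of the 2 ages did not overlap, as for 25.1% of all genes. In complex II all 4 members were also negative, and 3 of 4 did not overlap. The summed level of complex III was 1272 and 1276 CPM at 4 weeks, 1226 and 1225 CPM at 6 weeks, and 1019, 1143 and 970 CPM at 8 weeks. The 8-week libraries lay below all the younger ones in this sum. The 73 members tested outside complex III had a median of −0.14, with 7 called lower. No test was made of the difference between complexes.

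Cyc1 (chr15:76343523-76346260, GRCm38, plus strand) encodes cytochrome c1, the heme subunit that hands electrons to cytochrome c. It measured 131 and 134 CPM at 4 weeks, 119 and 117 CPM at 6 weeks, and 86.8, 98.3 and 93.9 CPM at 8 weeks. The 3 ages did not overlap, and levels were lower at each later age. Cyc1 fell at 8 against 4 weeks by 0.51 on the log2 scale (SE 0.0939, adjusted p = 0.00422), and it alone among the members passed under all 19 alternative settings, with adjusted p from 5.2e-05 to 0.0478. At 8 against 6 weeks its value was −0.34 (SE 0.0943, adjusted p = 0.190).

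Uqcrc2 (chr7:120635176-120659524, plus strand), a core protein on the matrix side of complex III, had 267 and 270 CPM at 4 weeks, 237 and 239 CPM at 6 weeks, and 205, 219 and 188 CPM at 8 weeks. Again no library of one age reached into another. The log2 fold change at 8 against 4 weeks was −0.40 (SE 0.0983, adjusted p = 0.0181). Uqcrfs1 (chr13:30540308-30545362, minus strand), the Rieske iron-sulfur protein, had 172 and 160 CPM at 4 weeks, 160 and 163 CPM at 6 weeks, and 120, 142 and 118 CPM at 8 weeks. Here the 4-week and 6-week libraries overlapped, and all 8-week libraries were below them, with a log2 fold change at 8 against 4 weeks of −0.39 (SE 0.106, adjusted p = 0.0275). Uqcrh, the highest of the complex per kb but not in CPM, averaged 114 ± 17.4 CPM at 8 weeks (SD, n = 3) and 139.5 ± 3.27 CPM at 4 weeks (SD, n = 2), a log2 difference of −0.29 that did not pass (adjusted p = 0.124).

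In complex V, 2 of 17 members were lower at 8 than at 4 weeks, beside 8.94% of all genes, and the median was −0.09. Of these 17, placed here by symbol alone, 13 values were negative and 4 positive. The positive ones were Atp5l (0.34), Atp5g2 (0.30), Atp5s (0.25) and Atp5sl (0.11), the last annotated as Dmac2. Of the 100-base windows of Atp5l and Atp5g2, 61.3% and 100% also occur in other annotated genes. Atp5g3 (chr2:73908447-73911326, minus strand) encodes 1 of the isoforms of subunit c, the rotor ring, and had 125 and 122 CPM at 4 weeks, 106 and 104 CPM at 6 weeks, and 90.2, 97.0 and 86.0 CPM at 8 weeks. The ages did not overlap and Atp5g3 fell by 0.44 on the log2 scale at 8 against 4 weeks (SE 0.0936, adjusted p = 0.00865). Atp5b (chr10:128083273-128090391, plus strand) had 1216 and 1297 CPM at 4 weeks, 1042 and 1091 CPM at 6 weeks, and 976, 1075 and 950 CPM at 8 weeks. The 6-week and 8-week libraries of Atp5b overlapped, and its log2 fold change at 8 against 4 weeks was −0.33 (SE 0.105, adjusted p = 0.0494), close to the threshold.

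Complex IV, cytochrome c oxidase, had 3 of 15 tested members lower at 8 than at 4 weeks, with a median of −0.18. This was 20%, beside 8.94% of all genes. Cox6a1 (chr5:115345642-115348981, minus strand), the ubiquitous form of subunit VIa, was scarce, at 8.60 and 6.73 CPM at 4 weeks, 6.35 and 5.74 CPM at 6 weeks, and 5.45, 5.58 and 5.36 CPM at 8 weeks. The libraries stood in the order of age without overlap although the 4-week pair was wide apart, and the log2 fold change at 8 against 4 weeks was −0.49 (SE 0.136, adjusted p = 0.0298). Cox7b (chrX:106015700-106022450, plus strand), a small structural subunit, had 153 and 154 CPM at 4 weeks, 144 and 148 CPM at 6 weeks, and 129, 122 and 117 CPM at 8 weeks. Its ages did not overlap either (log2 fold change −0.32, SE 0.0921, adjusted p = 0.0320). Cox6c (chr15:35925886-35938246, minus strand), another small subunit, had 144 and 132 CPM at 4 weeks, 136 and 143 CPM at 6 weeks, and 111, 113 and 103 CPM at 8 weeks. The 4-week and 6-week libraries of Cox6c overlapped, all 8-week ones were below them (−0.33, SE 0.0957, adjusted p = 0.0325), and 11.4% of the 100-base windows of its transcript also occur in another annotated gene.

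Complex I, the largest complex, had 1 of its 37 members lower and a median of −0.13 at 8 against 4 weeks. Its share of 2.7% was below the 8.94% of all genes. The lower member was Ndufs1 (chr1:63143596-63176833, minus strand), the largest iron-sulfur subunit, with 273 and 279 CPM at 4 weeks, 248 and 260 CPM at 6 weeks, and 223, 228 and 208 CPM at 8 weeks. The libraries of Ndufs1 did not overlap between ages, and its log2 fold change was −0.33 (SE 0.0941, adjusted p = 0.0328). In complex II, 1 of 4 was lower, beside the same 8.94% of all genes. Sdhd (chr9:50596357-50603812, minus strand), a membrane anchor, had 126 and 125 CPM at 4 weeks, 102 and 118 CPM at 6 weeks, and 99.5, 99.5 and 91.9 CPM at 8 weeks. The 6-week pair was spread widely but stayed above the 8-week libraries, and the log2 fold change of Sdhd at 8 against 4 weeks was −0.37 (SE 0.0989, adjusted p = 0.0238).

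**Figure D3:**
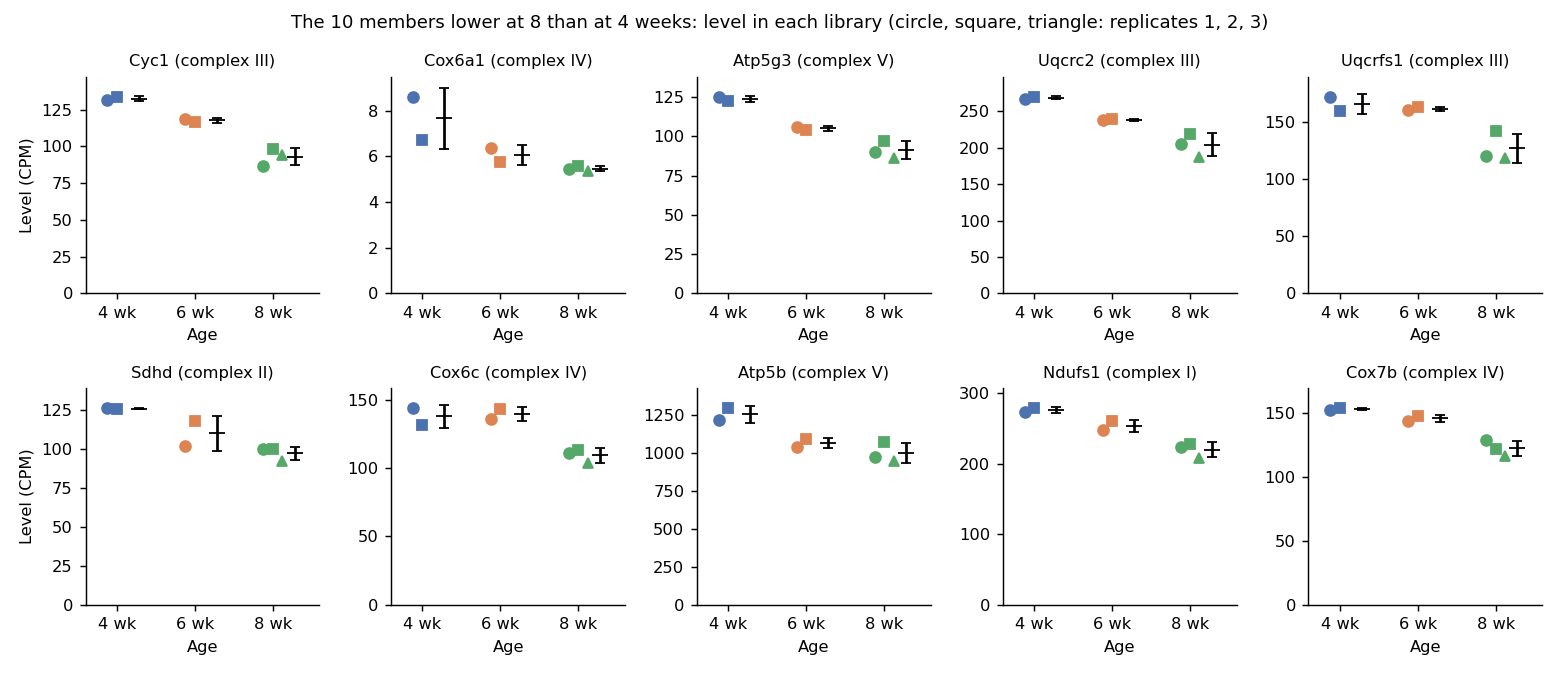
Level in CPM of the 10 members that were lower at 8 than at 4 weeks, 1 panel per gene, with a point for each library (circle, square and triangle for replicates 1, 2 and 3) and the mean with its SD beside them. In every panel the 3 libraries at 8 weeks lie below the 2 at 4 weeks, for Cyc1 at 86.8 to 98.3 against 131 to 134 CPM.

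The 250 bases before the RefSeq gene start (GRCm38.p6) were searched in the 67 members with an entry, since nuclear respiratory chain genes are known targets of NRF1, ETS factors such as GABPA, estrogen-related receptors (ERR) and YY1. Both strands were read, and the NRF1 and ETS motifs may each overlap other motifs. The core of the NRF1 motif, CGCNTGCG, was present in 16 of the 67 promoters (23.9%) and in 6.94% of all 27025 promoters of this length. The ETS motif CCGGAAG was present in 11 (16.4%, all promoters 7.05%), the ERR motif TCAAGGTCA in 1 (1.49%, all promoters 0.366%) and the YY1 motif AAGATGGCG in 0 (all promoters 0.607%). The set of all promoters was not matched to the members for base composition or level. The share of promoters with at least 1 match to any of these motifs was not counted over that set. Of the 10 members called at 8 weeks, 6 had an entry, and those of Atp5g3, Cox6a1 and Sdhd held at least 1 match. These 3 are printed because they are the called members with a match, and the matches to NRF1, ETS or ERR are in capitals. They lie at chr2:73911327-73911576, chr5:115348959-115349208 and chr9:50603850-50604099, all on the minus strand and written 5′ to 3′ toward the gene.
Atp5g3: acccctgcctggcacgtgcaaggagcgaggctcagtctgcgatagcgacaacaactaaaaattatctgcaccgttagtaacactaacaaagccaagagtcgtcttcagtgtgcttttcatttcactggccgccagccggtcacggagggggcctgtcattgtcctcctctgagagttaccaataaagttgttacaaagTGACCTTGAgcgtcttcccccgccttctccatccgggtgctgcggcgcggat
Cox6a1: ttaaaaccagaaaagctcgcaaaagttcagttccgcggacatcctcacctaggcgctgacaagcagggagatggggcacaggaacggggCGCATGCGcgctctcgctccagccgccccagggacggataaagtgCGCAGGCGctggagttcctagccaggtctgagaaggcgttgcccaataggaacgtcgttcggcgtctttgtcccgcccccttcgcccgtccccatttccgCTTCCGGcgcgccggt
Sdhd: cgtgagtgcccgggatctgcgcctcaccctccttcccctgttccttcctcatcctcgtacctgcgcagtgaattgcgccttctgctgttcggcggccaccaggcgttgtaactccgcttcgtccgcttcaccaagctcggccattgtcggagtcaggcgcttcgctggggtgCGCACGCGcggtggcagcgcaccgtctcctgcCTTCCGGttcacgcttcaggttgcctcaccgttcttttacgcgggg
Atp5g3 carried the only ERR match of the members, on the strand opposite to the gene, close to its start. Cox6a1 carried 2 NRF1 matches and 1 ETS match, and Sdhd carried 1 of each. A match is a description of the letters, and binding was not measured.

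At 8 against 6 weeks, 0 members passed, and 0.187% of all genes did (0.0334% higher and 0.154% lower). At an unadjusted p under 0.05 there were 16 members, all lower. Of all 14955 genes, 12.2% had such a p, 869 of them lower and 953 higher. The DESeq2 Wald test called 2 of the 16 members, Ndufa4 (−0.38, adjusted p = 0.0195) and Cox6c (−0.37, adjusted p = 0.0452), and limma-voom called 0. That DESeq2 fit called 1.45% of all its genes, 0.972% lower. The median log2 fold change was −0.14, with 72 of 82 values negative, beside 47.2% negative among all genes. In 36 members (43.9%) all 8-week libraries lay below both 6-week libraries, as for 13.6% of all genes. This comparison shares its 8-week libraries with the one against 4 weeks, so the lower values in them are the same measurements. With 6 weeks set against the mean of 4 and 8 weeks, 0 members passed (0.0936% of all genes, 0.0669% higher and 0.0267% lower), and DESeq2 called 0. In that comparison 4 members had an unadjusted p under 0.05, all higher, beside 883 of 14955 genes higher and 938 lower.

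The 8-week libraries did not move alike. Relative to the mean of the 4-week libraries, the median log2 level of the members was −0.18 in replicate 1, −0.02 in replicate 2 and −0.30 in replicate 3 at 8 weeks, and 69, 48 and 75 of the 82 members lay below that mean. Replicate 2 was the highest of the 3 in 67 members (81.7%), as for 36% of all genes. Without replicate 2 at 8 weeks, 21 members were lower and 1, Atp5l, was higher than at 4 weeks, beside 8.05% of all genes lower and 17.3% called in either direction. With replicate 2 alone at 8 weeks, taken to vary like the other ages, 2 members were lower (Cyc1 and Ndufc2), 2 were higher (Atp5g2 and Cox6a2) and the median was −0.02, beside 5.94% of all genes lower. Leaving out other libraries gave 1 lower member without replicate 1 at 4 weeks (all genes 4.56%) and 2 without replicate 2 at 4 weeks (2.72%). It gave 6 without replicate 1 (7.44%) or replicate 2 (7.72%) at 6 weeks, and 5 without replicate 1 (7.57%) or replicate 3 (7.79%) at 8 weeks. Cyc1 passed in each of these fits, and none of the 10 members changed direction.

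Among the 8-week libraries, replicate 2 also stood apart in slow fiber genes, such as the slow troponins, and in mitochondrial transcripts. The 10 slow fiber genes summed to 552.8 and 668 CPM at 4 weeks, 627 and 633 CPM at 6 weeks, and 356, 563 and 345 CPM at 8 weeks. Replicate 2 at 8 weeks was thus the highest of its age here too, as it was in the members. It was also the highest of its age in the 12 fast fiber genes, which summed to 83466, 92544 and 81553 CPM at 8 weeks. At 8 against 4 weeks 3 of the 10 slow fiber genes fell, Casq2 (−1.68, adjusted p = 1.5e-04), Tnni1 (−1.02, adjusted p = 0.0170) and Tnnt1 (−0.81, adjusted p = 0.0325). The list's median was −0.54. Casq2 was already lower at 6 weeks, with 24.5 and 27.1 CPM against 46.6 and 55.8 CPM at 4 weeks, whereas 7 of the 10 genes had a positive value at 6 against 4 weeks. Myh7, the slow myosin, stood at −0.47 on the log2 scale at 8 against 4 weeks (adjusted p = 0.227) and did not pass. Of 12 fast fiber genes, 2 rose, Myh4, the fastest myosin (0.52, adjusted p = 0.0194), and Atp2a1, the calcium pump of fast fibers (0.49, adjusted p = 0.0245), and 1 fell, Mylpf, the fast regulatory light chain (−0.78, adjusted p = 0.00379). Of all genes, 9.52% were higher and 8.94% lower. The median of the fast list was 0.09, with 5 of the 12 values negative. Myh2 (0.17, adjusted p = 0.506) and Myh1 (−0.07, adjusted p = 0.773) did not pass. The part of fiber type in the members' levels was not tested.

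The subunits encoded by mitochondrial DNA ran the other way between the 8-week libraries. The 7 of 13 that were tested summed to 34729, 20987 and 38915 CPM at 8 weeks, so replicate 2 was lowest. The sums were 31005 and 23080 CPM at 4 weeks and 38005 and 32311 CPM at 6 weeks. Replicate 2 at 8 weeks thus lay near replicate 2 at 4 weeks, and replicates 1 and 3 near the 6-week libraries. At 8 against 4 weeks 1 of the 7 was lower, mt-Nd6 (−1.66, adjusted p = 0.00710), and 0 were higher.

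**Figure D4:**
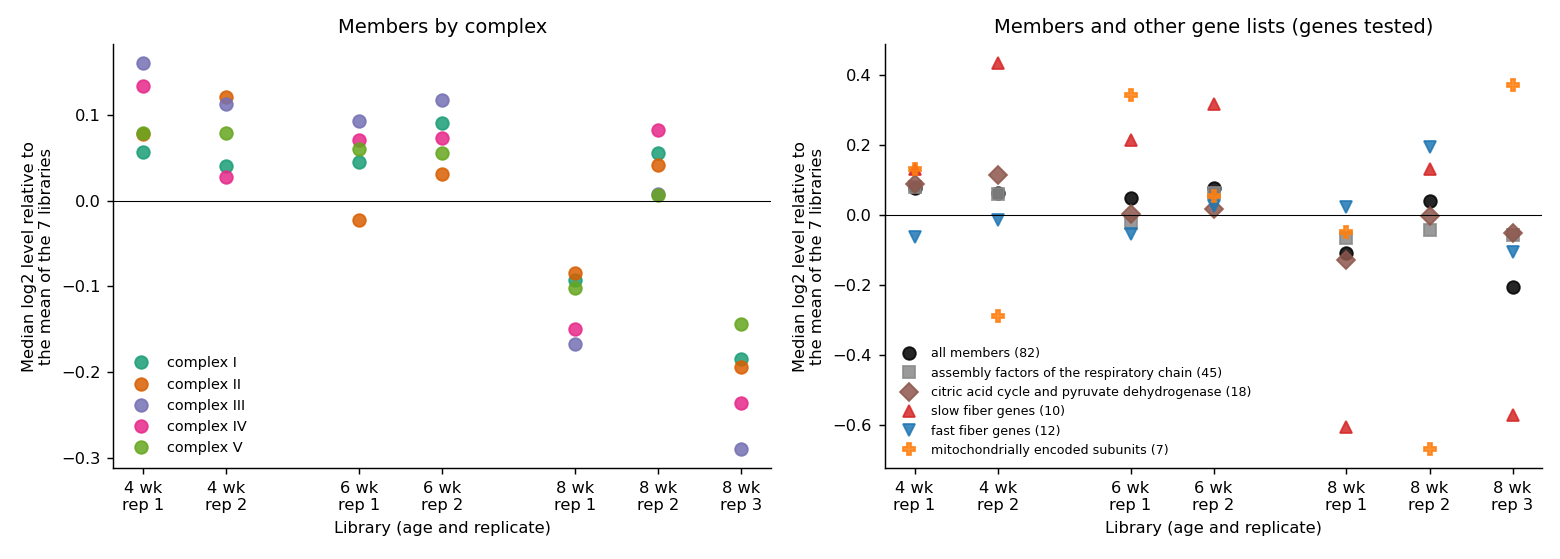
Median log2 level by library, set against the average of all 7 libraries, for the members of each complex on the left and for all members and other gene lists on the right, with the number of genes tested in parentheses. In replicates 1 and 3 at 8 weeks the members stand at −0.11 and −0.21 and the slow fiber genes at −0.60 and −0.57, while in replicate 2 at 8 weeks they stand at 0.04 and 0.13. The fast fiber genes stand at 0.024, 0.195 and −0.105 in replicates 1, 2 and 3 at 8 weeks.

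Transcript length also moved with the libraries. The members have short transcripts, with a median exon length of 1587 bases against 4242.5 for all genes tested. The trend of level with length, read at the members, was −0.02, 0.02 and −0.09 on the log2 scale in the 8-week libraries, against 0.05 and 0.06 in the 4-week libraries. With this trend removed from each library, 5 members were lower and 1 was higher at 8 than at 4 weeks, and the median was −0.08, with 58 of 82 values negative. Of all genes, 8.99% were lower in that fit and 18.6% changed in either direction, so the members called were no larger a share. The 5 lower were Cyc1, Atp5g3, Uqcrc2, Ndufs1 and Cox6c, and the higher one was Cox6a2.

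Several subunits exist as a muscle or heart form and a ubiquitous form. For subunit VIa of complex IV, Cox6a2, the muscle form (chr7:128205435-128206387, minus strand), had 123 and 121 CPM at 4 weeks, 158 and 134 CPM at 6 weeks, and 145, 167 and 135 CPM at 8 weeks. All later libraries lay above the 4-week ones, but the log2 fold change at 8 against 4 weeks of 0.29 did not pass (SE 0.116, adjusted p = 0.110), and it passed in 3 of 19 alternatives. The ratio of Cox6a2 to Cox6a1 counts was 14.3 and 17.98 at 4 weeks, 24.8 and 23.3 at 6 weeks, and 26.5, 29.9 and 25.2 at 8 weeks. This ratio within a library does not depend on scaling. It does use the Cox6a1 counts, 167 to 324 per library, that gave the lower call above, so it is not a separate result. No 4-week ratio reached any later ratio.

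The other pairs of complex IV showed no such separation. The ratio of Cox7a1, the muscle form of subunit VIIa, to Cox7a2 was 1.27 and 1.29 at 4 weeks, 1.44 and 1.35 at 6 weeks, and 1.23, 1.34 and 1.34 at 8 weeks. That of Cox8b to Cox8a, the ubiquitous form of subunit VIII, was 18.3 and 23.5 at 4 weeks, 22.3 and 24.4 at 6 weeks, and 23.7, 20.3 and 24.1 at 8 weeks. In both pairs the 8-week values overlapped those at 4 weeks. Cox8b itself averaged 173 ± 8.60 CPM at 6 weeks and 141 ± 3.75 CPM at 4 weeks (SD, n = 2 each), with a log2 fold change of 0.29 that did not pass (adjusted p = 0.130). The ratio of Cox4i1, the ubiquitous form of subunit IV, to Cox4i2 ranged from 283.9 to 595.3, and Cox4i2 rested on only 9 to 28 counts per library.

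For subunit c of complex V, the ratio of Atp5g1 to Atp5g3 was 0.937 and 0.882 at 4 weeks, 1.20 and 1.19 at 6 weeks, and 1.07, 1.17 and 1.25 at 8 weeks. The 4-week values lay below all others, but Atp5g3 is itself among the members called lower, so this is not a separate result. Atp5g1 stood at −0.09 on the log2 scale at 8 against 4 weeks (adjusted p = 0.589), beside −0.44 for Atp5g3. Atp5g1 shares 57.3% and Atp5g2 100% of its 100-base windows with another annotated gene, so their counts are uncertain, whereas Atp5g3 shares none. Atp5g2 had 0.30 at 8 against 4 weeks (adjusted p = 0.173). Ndufa4 averaged 135 ± 5.47 CPM at 8 weeks (SD, n = 3) and 175 ± 3.09 CPM at 6 weeks (SD, n = 2), with a log2 fold change of −0.37 that did not pass (adjusted p = 0.155). Its ratio to Ndufa4l2 was 84.3 and 75.9 at 4 weeks, 103.9 and 110.9 at 6 weeks, and 99.3, 89.1 and 83.7 at 8 weeks. Both 6-week values lay above all others, and the 8-week and 4-week values overlapped.

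**Figure D5:**
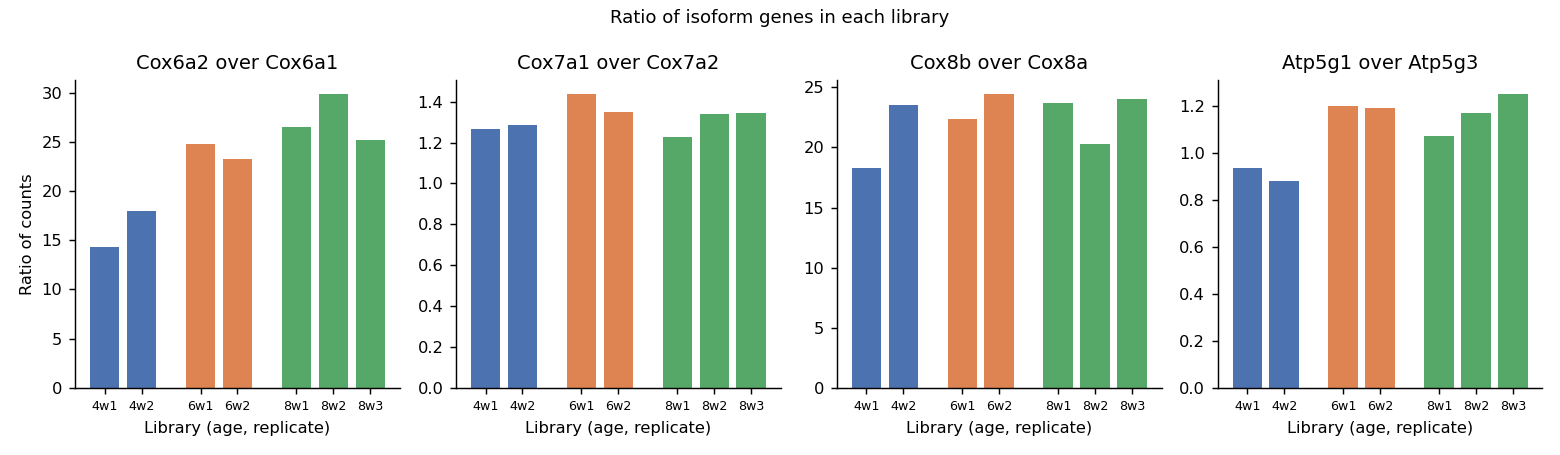
Ratio of the counts of isoform genes in each library (4w1 is replicate 1 at 4 weeks), on axes that start at 0, for Cox6a2 over Cox6a1, Cox7a1 over Cox7a2, Cox8b over Cox8a and Atp5g1 over Atp5g3. For Cox6a2 over Cox6a1 the 4-week bars stand at 14.3 and 17.98 and the later ones at 23.3 to 29.9, while for Cox8b over Cox8a the ages overlap.

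Genes that work with the chain were counted by their roles. Of 45 assembly factors tested, 5 fell and 0 rose at 8 against 4 weeks, with a median of −0.09. The share called was 11.1% here, 22.2% in the citric acid cycle list and 15.4% in the coenzyme Q list, beside 18.5% of all genes in either direction, so these counts single out none of the lists. They included Sdhaf4, a complex II assembly factor (−0.59, adjusted p = 0.00722), Ndufaf1, for complex I (−0.56, adjusted p = 0.00881), and Tmem70, for complex V (−0.50, adjusted p = 0.00483). The 18 genes of the citric acid cycle and pyruvate dehydrogenase, which supply NADH and succinate, had a median of −0.22, with 3 lower and 1 higher. Pdhb, a pyruvate dehydrogenase subunit, fell by 0.51 (adjusted p = 0.00287) and Sucla2, of succinyl-CoA synthetase, fell by 0.40 (adjusted p = 0.0145), whereas Ogdh, of the oxoglutarate dehydrogenase complex, rose by 0.42 (adjusted p = 0.0420).

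Among 13 genes for coenzyme Q synthesis and cytochrome c, which carry electrons between the complexes, 2 fell, Coq3 (−0.52, adjusted p = 0.00678) and Coq7 (−0.49, adjusted p = 0.00768). Of 17 regulators of mitochondrial biogenesis, 1 rose at 8 against 4 weeks, Yy1 (0.54, adjusted p = 0.0217), and 0 fell, with a median of 0.17. Ppargc1a, the coactivator PGC-1alpha, stood at 0.23 on the log2 scale (adjusted p = 0.442). The 8-week libraries of Ppargc1a held 33.7, 33.8 and 55.1 CPM, against 38.1 and 31.3 CPM at 4 weeks, and the ages overlapped.

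Markers of other cell types moved as well between 8 and 4 weeks. Lower were 3 of 4 endothelial, 2 of 4 fibroblast, 1 of 4 macrophage, 4 of 4 erythroid, 1 of 4 mural cell and 1 of 4 nerve and Schwann cell markers. Higher was 1 of 4 adipocyte markers tested. Of all genes tested, 8.94% were lower and 9.52% higher, so 1 of 4 in so short a list says little. The endothelial sum was 158, 159 and 131 CPM at 8 weeks, against 184 and 206 CPM at 4 weeks. The fibroblast sum was 833, 797 and 599.6 CPM at 8 weeks, against 1505 and 1575 CPM at 4 weeks, of which Col1a1, a collagen of bone and connective tissue, made up 334, 384 and 219 CPM, against 1089 and 1154 CPM. Lum was lower too (−0.78, adjusted p = 0.00122), while Pdgfra (−0.17, adjusted p = 0.294) and Dcn (0.13, adjusted p = 0.514) did not pass. These lists take a small share of the counts beside the muscle fiber genes, and their part in the members' levels was not tested.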

How the data were processed

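Total RNA depleted of ribosomal RNA gave 1 stranded library per gastrocnemius. After trimming, the authors used STAR on the GRCm38 genome and featureCounts for genes, and the deposited counts, not normalized, served here. Deposited fold changes, p-values, normalized and rlog values and pathway enrichments of the authors were not used. The members and gene lists were chosen with earlier results of these data known.

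The test was that of edgeR 4.0.16 in R 4.3.3 (filterByExpr, minimum count 10, TMM, quasi-likelihood F test, 1 mean per age, all 7 libraries), with Benjamini-Hochberg adjustment over 14955 genes and a threshold of 0.05. The 26 symbols turned into dates, 0.0532% of counts, were left out. DESeq2 1.42.0, limma 3.58.1 (voom), other scalings and filters, a replicate block, removal of a length trend and each library left out were alternatives. The code was tested on simulated data. Levels per kb use the shortest principal transcript of GENCODE (GRCm38). Named were all members called, the highest per complex, isoform pairs, members that failed the filter, and of each list up to 3 genes with the smallest p, with Myh7, Myh2, Myh1, Myh4 and Ppargc1a. The rule also covers members that change direction in an alternative, given as counts (38 of 82 at 8 against 4 weeks). Ndufc2, Atp5l, Atp5a1, Atp5s, Atp5sl, Dcn and Pdgfra were chosen after their values were seen.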

Additional observations from a re-analysis of the deposited data

How the results depend on the processing

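The count of members lower at 8 than at 4 weeks, 10, was the result most open to the processing. It was 46 with library totals without the mitochondrial genome, 6 with only the ages compared, and 5, with 1 higher (Cox6a2), with the length trend removed. The share of all genes lower was 7.82% with only the ages compared and 8.99% with the length trend removed. The count of 10 stood beside 8.94%. The members lower ranged from 1 to 21 when 1 library was left out, and the members higher from 0 to 1. Without replicates 1 and 3 at 8 weeks, an alternative chosen after seeing the data that leaves 1 library there and assumes it varies like the other ages, 2 were lower and 2 higher, and 1 member (Atp5g2) was higher at 6 than at 4 weeks. At 8 against 6 weeks the counts lower were 1 (Ndufa4) with library totals without the mitochondrial genome and 2 with the DESeq2 Wald test. In these fits 0.608% and 0.972% of all genes were lower. Library totals shift all genes: at 8 against 4 weeks the median was −0.20 over all genes and −0.33 over the members, and without the mitochondrial genome −0.23 and −0.37, with 22.5% of all genes lower.

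The replicate numbers are shared between ages, but the deviations of libraries with the same number from the mean of their age correlated at −0.0925 to 0.0426. With 2 libraries each at 4 and 6 weeks the deviations mirror each other, so replicates 1 and 2 gave the same value there (0.0426). These are few and partly dependent values, and the numbers were not taken to pair the samples. With a replicate block, 6 members were lower at 8 than at 4 weeks, 5 of them among the 10, beside 7.28% of all genes lower. With the block and the length trend removed 5 were lower and 1 higher, beside 7.12% of all genes lower and 15.4% in either direction.

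The called members kept their direction in all 19 alternatives. Atp5g3 and Uqcrc2 passed in 16 each, Sdhd in 14, Uqcrfs1 in 12, Cox6a1 in 11, Ndufs1 in 10, Cox7b and Cox6c in 9 each and Atp5b in 7. Of the isoform genes that did not pass at 8 against 4 weeks, the log2 fold change turned positive without replicates 1 and 3 at 8 weeks for Cox7a1 (0.059), Cox8b (0.069), Cox8a (0.085), Cox4i1 (0.10) and Atp5g1 (0.014), for Cox8a without replicate 1 at 4 weeks (range with 1 library left out −0.38 to 0.040), and for Cox4i1 with the block and the length trend removed (0.053). The causes were not tested. With only the ages compared, 6 weeks against the mean of 4 and 8 weeks gave no value. With 2 or 3 libraries per age and 4 residual degrees of freedom, small changes cannot be shown, and a value that missed the threshold is not shown to be unchanged.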
